A study of Homo sapiens with 2 samples.

Results

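The genes described here encode PU.1 and 7 other transcription factors of the ETS family, at 8 loci: SPI1 (the gene of PU.1), SPIB, ETS1, ETS2, FLI1, ERG, ETV6 and ELF1. A peak was assigned to a locus when it overlapped the gene body, given in whole kb of hg19, or the 20 kb on either side. This rule gave 31 of the 20085 peaks of the series (0.154%), in windows that together cover 1207 kb. The cells were NB4, a line from a human acute promyelocytic leukemia with the PML-RARA fusion, grown in RPMI medium with fetal bovine serum and with no treatment stated. They were profiled by CUT&Tag, which uses an antibody, here against PML-RARA, to guide a transposase that cuts and tags the chromatin nearby. Both replicates form 1 group, and the deposited values are 1 peak list merged from them. There are therefore no values per replicate, no second group and no test, and the depth is unknown; all comparisons here are descriptions of 1 list. Each peak carries the authors' total signal, read as the coverage summed over its bases, and its maximum signal, the highest coverage in it.

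ETS factors share a DNA-binding domain, the ETS domain, that recognises a GGAA core. PU.1 drives the formation of granulocytes, monocytes and B cells, and its level bears on the choice between these fates. It activates its own gene together with RUNX1 through a distal upstream regulatory element, whose deletion in mice lowers PU.1 and leads to leukemia. PML-RARA, the oncoprotein of acute promyelocytic leukemia, has been described at sites that hold PU.1 motifs beside motifs of the retinoic acid receptors, whose consensus core reads AGGTCA. The other 7 genes act in lymphocytes, megakaryocytes, endothelium and blood stem cells, and several are partners in leukemia or sarcoma fusions.

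RefSeq promoter sequences, running from 250 bases before to 50 after a gene's start in GRCh38.p14, were available for 5 of the 8 genes. The 4 below show genes with a peak at or near the 5′ end (ETV6, ETS2) and genes with none in the window (ELF1, SPIB). The ELF1 start shown lies, by distance, near a strong peak outside the window. Each is the start farthest upstream in the table, read 5′ to 3′ on the gene's strand, and capitals mark every GGAA and its complement TTCC.
ETV6: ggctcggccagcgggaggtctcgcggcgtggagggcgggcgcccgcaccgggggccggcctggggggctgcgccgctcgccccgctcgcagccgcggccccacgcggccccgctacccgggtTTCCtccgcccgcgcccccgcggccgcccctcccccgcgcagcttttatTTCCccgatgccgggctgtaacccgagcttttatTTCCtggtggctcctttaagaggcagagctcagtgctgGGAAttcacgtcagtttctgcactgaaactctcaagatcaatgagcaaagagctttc
ETS2: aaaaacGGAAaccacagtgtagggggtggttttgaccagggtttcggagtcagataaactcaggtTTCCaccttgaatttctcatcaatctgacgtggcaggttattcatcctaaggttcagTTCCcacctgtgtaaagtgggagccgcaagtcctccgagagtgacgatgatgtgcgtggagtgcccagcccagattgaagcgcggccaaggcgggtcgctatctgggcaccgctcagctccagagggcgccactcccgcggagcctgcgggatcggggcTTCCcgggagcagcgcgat
ELF1: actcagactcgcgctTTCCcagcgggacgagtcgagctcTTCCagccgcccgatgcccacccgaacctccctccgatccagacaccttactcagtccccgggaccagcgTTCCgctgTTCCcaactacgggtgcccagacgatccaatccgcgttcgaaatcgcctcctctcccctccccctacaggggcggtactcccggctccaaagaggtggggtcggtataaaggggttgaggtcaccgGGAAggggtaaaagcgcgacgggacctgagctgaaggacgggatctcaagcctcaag
SPIB: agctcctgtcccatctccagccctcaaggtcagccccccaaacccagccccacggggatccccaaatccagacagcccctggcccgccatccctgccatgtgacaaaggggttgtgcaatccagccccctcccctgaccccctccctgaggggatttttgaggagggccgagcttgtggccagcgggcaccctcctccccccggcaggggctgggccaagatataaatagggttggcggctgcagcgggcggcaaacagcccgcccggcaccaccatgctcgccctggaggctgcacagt
The ETS core GGAA, counted on both strands, occurred 4 times in the ETV6 sequence, 4 times in ETS2, 5 times in ELF1 and 0 times in SPIB; in the ERG sequence, not shown, it occurred 1 time. It was present in 95.5% of all 35116 RefSeq promoters, with a median of 3 matches. The longer ETS site CCGGAAGT was in none of the 5 sequences and in 4.14% of all promoters. The receptor core AGGTCA occurred 1 time each in ELF1 and SPIB, in none of the other 3 and in 13.8% of all promoters. These letter matches are no evidence of binding.

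Of the 8 loci, SPI1 had the most signal per kb and ETS1 the most peaks. The window of SPI1 held 7 peaks, those of ETS1 11, ETV6 5, FLI1 4, ETS2 3 and ERG 1, while SPIB and ELF1 had none. SPI1 carried 48.9% of the summed total signal of the 31 peaks, in the third shortest of the windows (64 kb), and ETS1 carried 26.3%. This order depended on the flank, since most of the SPI1 signal lay upstream of the gene. With no flank SPI1 carried 29.2% and ETS1 44.0%, and with 5 kb flanks SPI1 carried 28.2% and ETS1 42.6%. Per kb SPI1 led also without flanks, at 3345, and ETS1 had 945. At least 1 peak was found at 6 of the 8 loci, against 65.2% of 319 other protein-coding genes with an hg19 model and 28.6% of 150 kb tiles of the chromosomes, so the count of loci with a peak is close to that of the other genes. The windows had 2.57 peaks per 100 kb together, against 0.661 on chromosomes 1 to 22 and X, a ratio of 3.89. Their summed signal was 381 per kb, against 91.2 per kb of the chromosomes, a ratio of 4.18. The chromosomes include stretches without genes, and gene density was not matched. The density of the windows together lay within the interquartile range of the other protein-coding genes (0 to 3.25). The 2 ratios are therefore not read as particular to the ETS genes. The signal ratio rested largely on SPI1: without it the signal was 206 per kb (2.26 times the chromosomes) and the density 2.10 peaks per 100 kb (3.18 times).

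**Figure D1:**
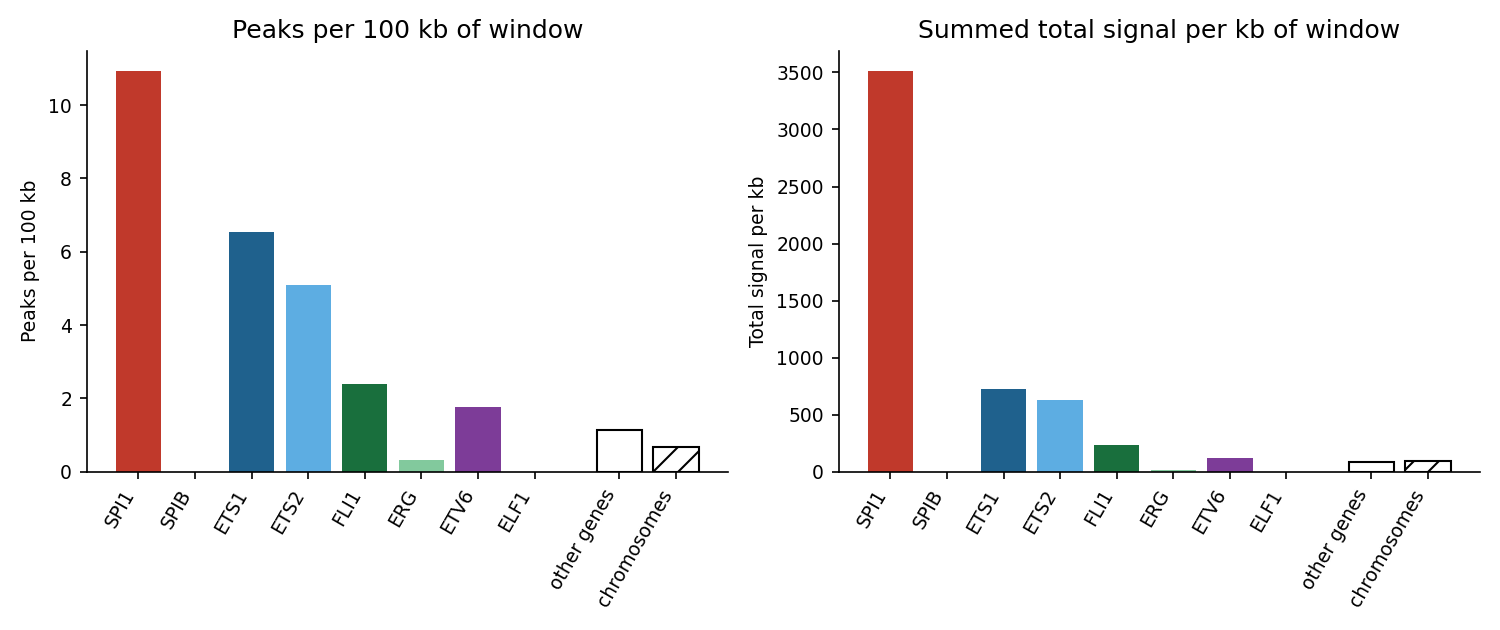
Bars give peaks per 100 kb of window (left) and summed total signal per kb of window (right) for each ETS gene, then the median of 319 other protein-coding genes (open bar) and the average of chromosomes 1 to 22 and X (hatched bar). SPI1 stands at 10.9 peaks per 100 kb and 3515 signal units per kb, while SPIB and ELF1 are at 0; there are no replicates and no error bars.

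Ordered by density, the loci ran from SPI1 (10.9 peaks per 100 kb) over ETS1 (6.55), ETS2 (5.08), FLI1 (2.40), ETV6 (1.75) and ERG (0.311) to SPIB and ELF1 (0). The median of the 8 was 2.07 peaks per 100 kb, against 1.15 for the other protein-coding genes (interquartile range 0 to 3.25), and 5 of the 8 lay above that median. By density SPI1 exceeded 94.7% of those genes, ETS1 87.1%, ETS2 81.8%, FLI1 67.7%, ETV6 59.6% and ERG 35.1%. The density of SPI1 rested partly on closely spaced peaks. With peaks within 1 kb merged, SPI1 had 4 peaks in place of 7 and ETS1 10 in place of 11. The order by density and the shares of other genes were not recomputed with peaks merged. By signal per kb SPI1 exceeded 98.1% of them, with 3515 per kb, ETS1 87.8%, with 720 per kb, and ERG 35.1%, with 13.2 per kb. Of the other genes 57 (17.9%) lie on chromosome 1. The other genes are examples supplied with software, not a random draw. Their spans were not checked, and that of TRIM40, with 267 peaks at 0.927 per 100 kb, is far too long for a gene.

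**Figure D2:**
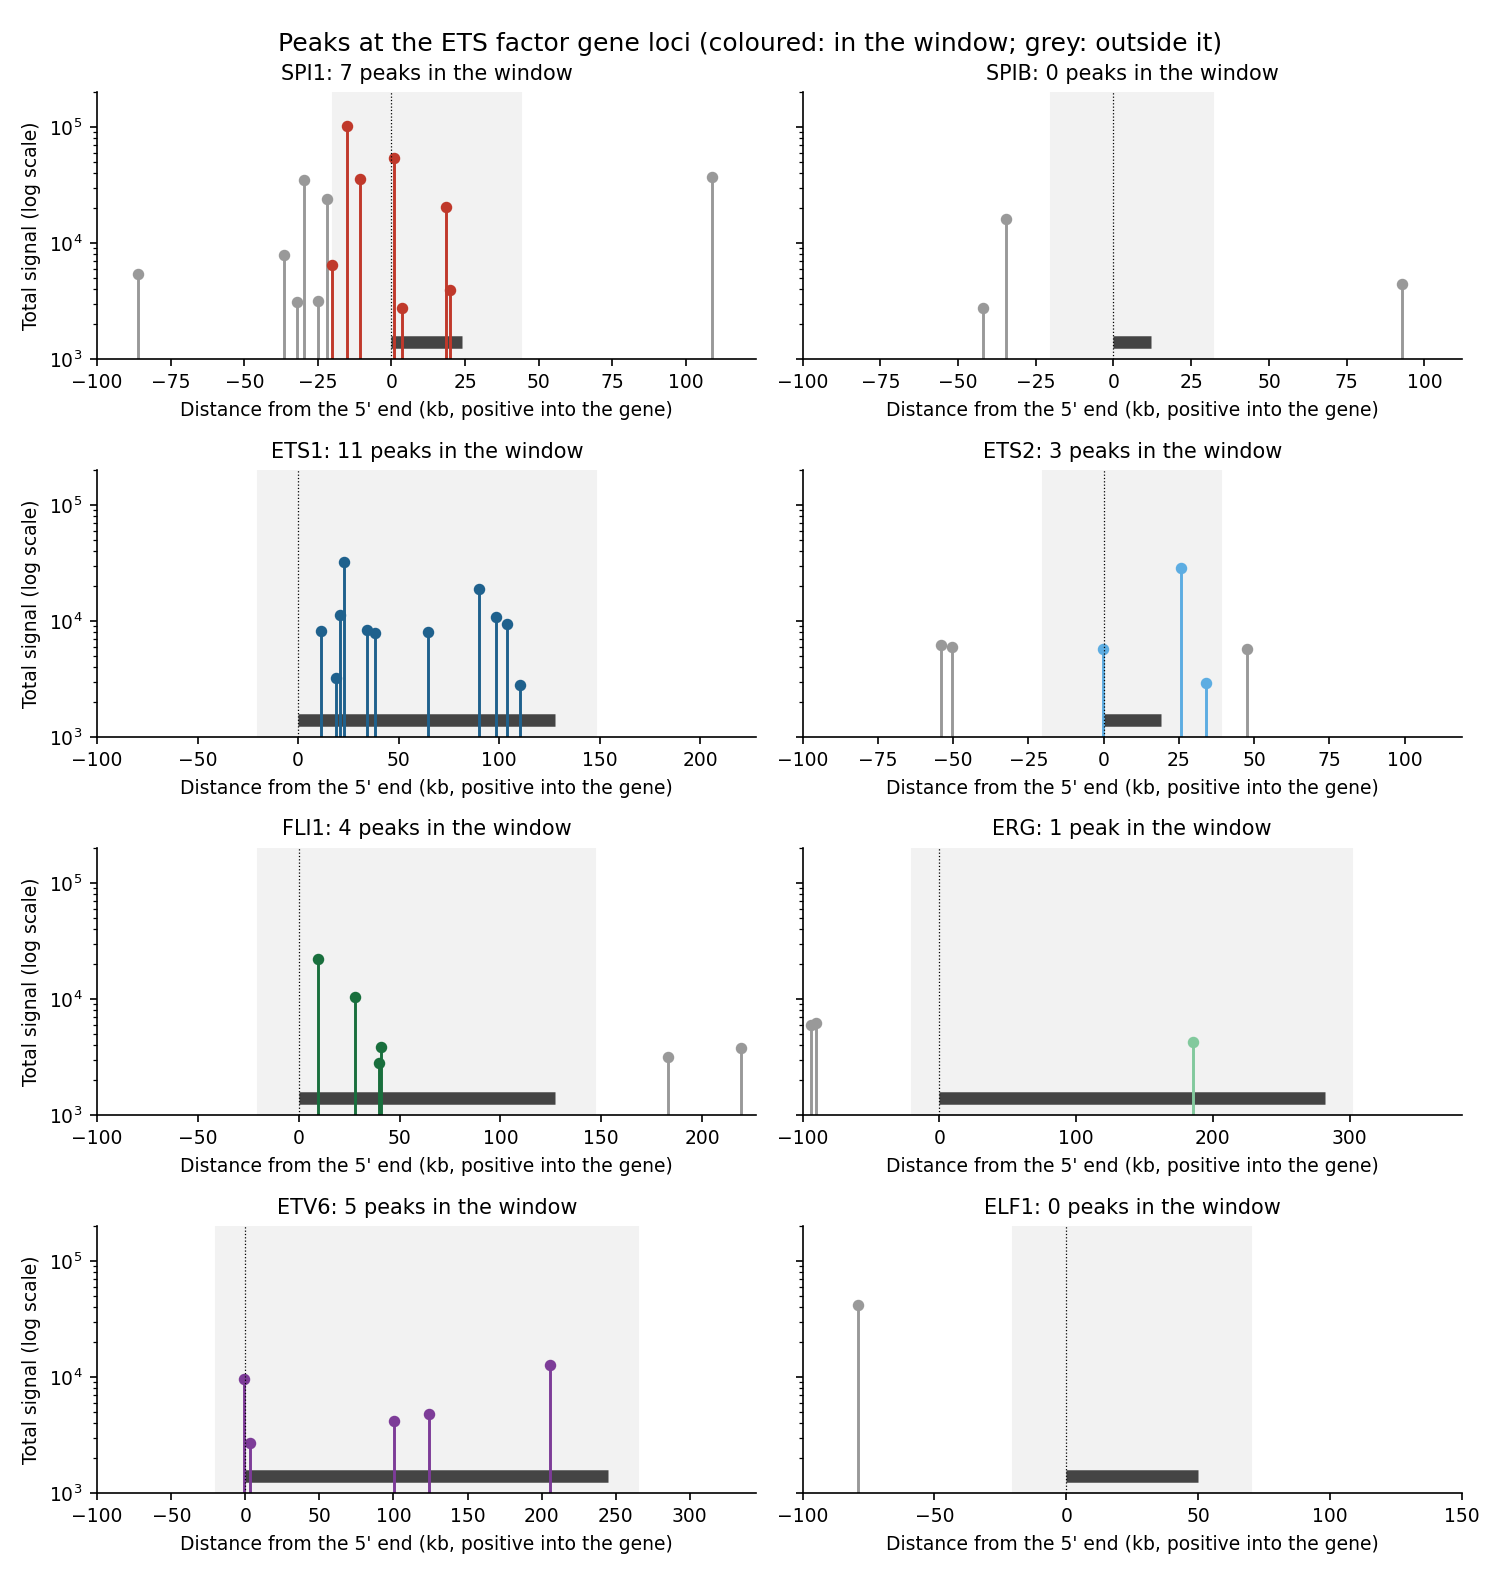
Each panel maps 1 locus, with distance from the gene's 5′ end in kb on the x axis (positive into the gene) and the total signal of each peak on a log y axis; the dark bar is the gene body and the shaded area the window. Coloured points are the 31 peaks in the windows and grey points are peaks outside them, drawn to 100 kb from the body. SPI1 peaks reach 102834, ERG has a single peak of 4255, and ELF1 shows only a grey peak of 41809 far upstream.

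PU.1 is encoded by SPI1 (gene ID 6688, chromosome 11, 47376 to 47400 kb, minus strand). Its strongest peak lay upstream of the gene, at chr11:47412330-47417841, 12.3 to 17.8 kb from the 5′ end, with a total signal of 102834 and a maximum of 70. This peak ranked 252 by total signal in the list, in its top 1.25%, and 182 by length (5511 bp). Only 140 bp separated it from the next peak on the gene's side, at chr11:47408955-47412190, which was 3235 bp long with a total of 35327 and a maximum of 37. Together these neighbours held a total signal of 138161, more than the whole ETS1 window (120998). The distal regulatory element of SPI1 named above lies upstream of the gene, but its hg19 position was not taken from any source here, so overlap with these peaks was not tested. In RefSeq, the noncoding RNA gene SLC39A13-AS1 spans the stretch from 3.07 to 30.7 kb upstream of SPI1, measured in GRCh38, so the peaks may also be assigned to it.

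The 5′ end of SPI1 itself was covered by the second strongest peak of the locus, at chr11:47397345-47400864. It reached from 0.864 kb before the 5′ end to 2.65 kb into the gene, with a total of 53413 (rank 828) and a maximum of 67. Inside the gene, a peak at 18.0 to 19.2 kb from the 5′ end (chr11:47380787-47382014) had a total of 20208 and a maximum of 40. The remaining peaks were weak, with totals of 3928 at 19.4 to 20.2 kb and 2731 at 3.24 to 3.95 kb into the gene. The peak on the edge of the window, at chr11:47419732-47420528, had 6506. The 3 strongest peaks thus made up 85.2% of the signal of the locus.

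Signal went on beyond the window on the upstream side. The next peak, just outside, lay at chr11:47420723-47422972 with a total of 23698, and another at chr11:47428709-47430725 had a total of 35190 and, with a maximum of 80, was taller than any peak in the window. In RefSeq the nearest protein-coding gene on this side, the zinc transporter gene SLC39A13, begins 28.7 kb from the 5′ end of SPI1, a distance that coincides with the near edge of that peak. With the flank widened to 50 kb the SPI1 locus had 12 peaks, and with the flank reduced to 5 kb it had 4. On the other side of the gene, none was listed from the last body peak up to 108 kb from the 5′ end.

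**Figure D3:**
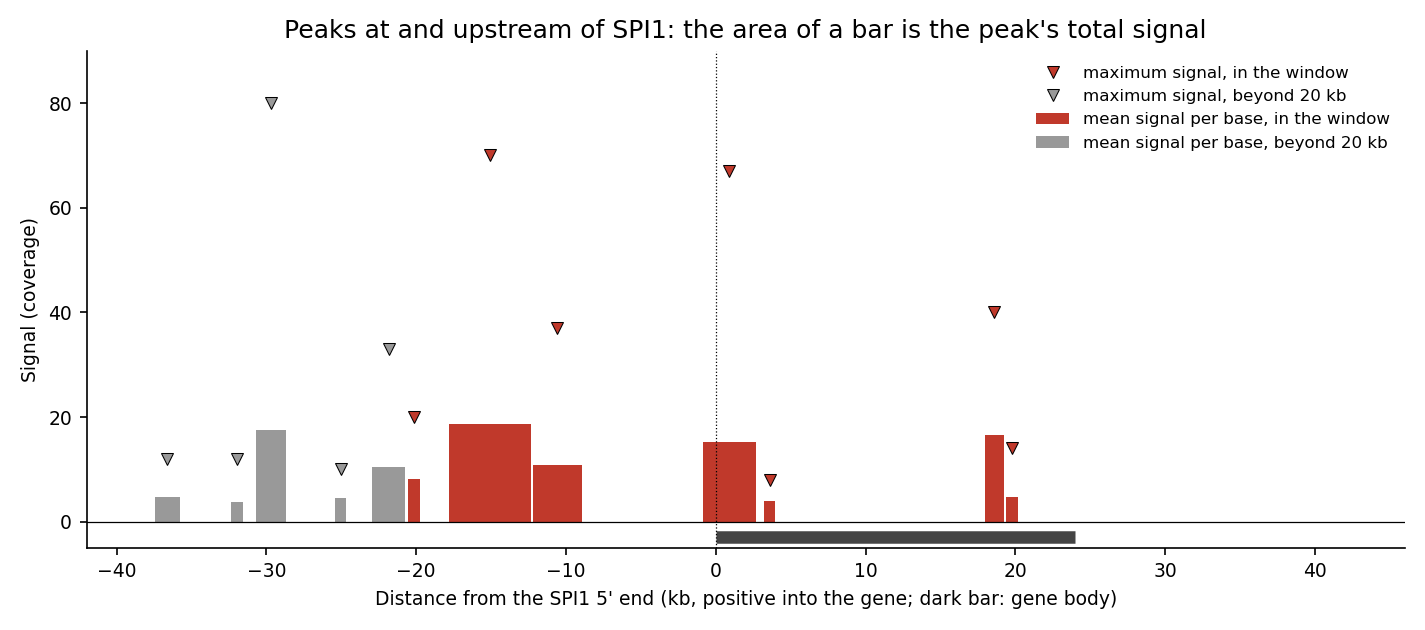
Peaks at SPI1 are drawn by distance from the 5′ end in kb (x axis, positive into the gene) with the mean signal per base as bar height and the peak's length as bar width, so that the area is the total signal; triangles mark the maximum signal. Red peaks lie in the window and grey ones beyond 20 kb. The widest block lies 12.3 to 17.8 kb upstream, and the peak across the 5′ end reaches 2.65 kb into the gene.

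SPIB (gene ID 6689, chromosome 19, 50922 to 50934 kb, plus strand) encodes the closest relative of PU.1, a factor of B cells and plasmacytoid dendritic cells. Its window of 52 kb, the shortest of the 8, held no peak, whereas that of SPI1 held 7. The nearest peak, at chr19:50886753-50888009, lay 34.0 to 35.2 kb upstream, with a total of 16182 and a maximum of 53. In RefSeq the far end of the neighbouring gene POLD1, the catalytic subunit of DNA polymerase delta, is 34.6 kb from the start of SPIB, and so falls within that range. A peak of 2727 stood at 41.8 to 42.2 kb upstream, and on the downstream side none was listed up to 92.3 kb from the 5′ end. An absent entry in the list sets no limit on signal, because the lowest total listed anywhere was 2577 and weaker stretches are not in the file.

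ETS1 (gene ID 2113, chromosome 11, 128329 to 128457 kb, minus strand) encodes the founding member of the family, a factor of T and natural killer cells. It had the most peaks, 11, all inside the gene body and none in the flanks. The peaks formed groups. The 6 peaks in the first 40 kb of the gene summed to 71072. They were led by chr11:128433487-128434760 at 22.2 to 23.5 kb, with a total of 32358 (rank 1774) and a maximum of 98, the tallest of the 31 peaks. The others in this group had totals of 11162, 8273, 8157, 7935 and 3187. Toward the 3′ end, 4 more peaks at 89.4 to 111 kb had totals of 18958, 10707, 9410 and 2786. A single peak of 8065 lay between the groups, at 64.1 to 65.0 kb, and RefSeq places the microRNA gene MIR6090 at 65.1 kb from the start of ETS1. No peak lay at the 5′ end of the body that the rule gives: the nearest began 10.8 kb into the gene. Other starts of ETS1 were not examined, so a peak at an internal start cannot be told from the others.

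ETS2 (gene ID 2114, chromosome 21, 40178 to 40197 kb, plus strand) encodes the factor closest to ETS1, which is activated by phosphorylation downstream of RAS signalling. Its window held 3 peaks. A weak one, at chr21:40177474-40178078, crossed the 5′ end with a total of 5757 and a maximum of 23. The strongest lay past the 3′ end, at chr21:40203157-40204124, 25.2 to 26.1 kb from the 5′ end, with a total of 28439 and a maximum of 87. It was 967 bp long, and its mean of 29.4 signal units per base was the highest of the 31 peaks (rank 450 of the list). The third peak, at 33.7 to 34.2 kb, had 2919. Only the peak at the 5′ end overlapped the gene body, so without flanks the count was 1, and with 50 kb flanks it was 5.

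FLI1 (gene ID 2313, chromosome 11, 128556 to 128683 kb, plus strand) encodes a factor of megakaryocytes and endothelium that is fused to EWSR1 in Ewing sarcoma. Its 4 peaks all lay in the gene body, within 40.9 kb of the 5′ end. The strongest, at chr11:128564394-128566443, 8.39 to 10.4 kb from the 5′ end, had a total of 22134 and a maximum of 67. The next, at 27.3 to 28.3 kb, had 10311 and a maximum of 42. The other 2 had totals of 2780 and 3869. In RefSeq the noncoding RNA gene SENCR occupies 6.54 to 10.9 kb from the start of FLI1, close to the distance of the strongest peak. The RefSeq gene is 1.14 kb longer than the rule's body, so whether the peak lies inside SENCR was not determined. Other starts of FLI1 were not examined, and the peak cannot be assigned to 1 of these genes by distance.

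ERG (gene ID 2078, chromosome 21, 39752 to 40034 kb, minus strand) encodes a factor that maintains blood stem cells and is fused to TMPRSS2 in prostate cancer. Its window, at 322 kb the longest of the 8, had a single peak, chr21:39848168-39848662, with a total of 4255 and a maximum of 19. The peak lay 185 to 186 kb into the gene, past the internal starts that RefSeq lists at 75.7 and 162 kb from the start farthest upstream. The density of 0.311 peaks per 100 kb was below the 0.661 of the chromosomes. With peaks under the list's median total left out, ERG had none.

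ETS1 and FLI1 are neighbours on chromosome 11, and ERG and ETS2 are neighbours on chromosome 21, a related pair thought to come from an old duplication. The chromosome 11 pair held 15 peaks with a summed signal of 160092 in 335 kb, and the chromosome 21 pair held 4 peaks with 41370 in 381 kb. These are 4.48 and 1.05 peaks per 100 kb. Between the last ETS1 peak and the first FLI1 peak, a stretch of 118 kb held no listed peak. Between the ERG peak and the first ETS2 peak, 329 kb apart, 2 peaks were listed, with totals of 6187 and 6011, both outside the windows. Within the subfamilies, FLI1 had 4 peaks and ERG 1, ETS1 11 and ETS2 3, and SPI1 7 and SPIB 0. No test of these differences was possible.

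ETV6 (gene ID 2120, chromosome 12, 11803 to 12048 kb, plus strand) encodes TEL, a repressor needed for blood formation in the bone marrow and fused to RUNX1 in childhood leukemia. It had 5 peaks in a window of 285 kb. The peak nearest the 5′ end, at chr12:11801550-11802643, ended 0.357 kb before it, with a total of 9577 and a maximum of 22. The strongest lay deep in the gene, at chr12:12008113-12009580, 205 to 207 kb from the 5′ end, with a total of 12759 and a maximum of 34. The others had totals of 2703, 4155 and 4751. All 5 lay outside the top 10% of the list. In the hg19 gene model of ETV6 used here the start lay at 11802788, 144 bp past the end of the peak nearest the 5′ end. The model ended at 12268261, well beyond the rule's 12048 kb, whereas the RefSeq length of 246 kb is near the rule's. A peak of 27274 at chr12:12161975-12164032, stronger than any in the window, falls inside the model but outside the window. Whether the GRCh38 start of the sequence printed above is the same start was not determined.

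ELF1 (gene ID 1997, chromosome 13, 41506 to 41556 kb, minus strand) encodes a factor of lymphoid and myeloid cells. No peak was listed in its window of 90 kb, but the body that the rule gives, 50 kb, is shorter than the RefSeq gene, which spans 129 kb in GRCh38. For the other 7 genes the lengths differed by at most 12.5 kb (ERG). The nearest peak, at chr13:41634038-41636232, lay 78.0 to 80.2 kb upstream of the rule's 5′ end, which is 128 to 130 kb from the 3′ end. With a total of 41809 (rank 1245) and a maximum of 70 it would be the third strongest of the ETS loci. RefSeq lists ELF1 starts 78.5 and 79.1 kb downstream of the start farthest upstream, so the distance between the starts matches the distance from the rule's 5′ end to this peak. WBP4, a gene of a spliceosome-associated protein, begins 0.123 kb beyond that start in RefSeq, and the peak cannot be assigned to 1 of the 2 genes by distance. The ELF1 sequence printed above is that of the start farthest upstream.

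A peak within 2 kb of the 5′ end of the rule's gene body was found at 3 of the 8 genes (SPI1, ETS2 and ETV6), against 45.1% of the other protein-coding genes and 2.89% of 4 kb tiles of the chromosomes. Other starts of a gene were not counted, among them the ELF1 start that by distance lies near a strong peak outside its window. The count is near that of other genes and is not a result about the ETS genes. It was 3 within 1 kb, against 43.3% of the other genes, 3 within 5 kb, against 47.3%, and 4 within 10 kb, where FLI1 was added, against 51.7%. By place, 25 of the 31 peaks overlapped a gene body, 4 lay upstream and 2 downstream. The gene bodies make up 887 kb of the windows (73.5%), so the share of peaks in them (80.6%) is near their share of the length. Of the 4 upstream peaks 3 belonged to SPI1.

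The total signal of the 31 peaks had a median of 8157 (interquartile range 4042 to 15858), against 6479 in the whole list. The median maximum was 23, against 22, the median length 864 bp, against 893 bp, and the median signal per base 8.61, against 7.53. Among the 31, 4 (12.9%, 95% exact Clopper-Pearson interval 3.63 to 29.8%, counting error only) were in the top 10% of the list by total signal, against 10.0% of all peaks by construction. These were 3 peaks of SPI1 and 1 of ETS1. The interval treats peaks as independent, although neighbouring SPI1 peaks among them lie only 140 bp apart, so it measures no spread between replicates. Just under the limit of 29703 stood the ETS2 peak of 28439. Also 4 of the 31 were longer than 2 kb, against 11.0% of all peaks, 3 at SPI1 and 1 at FLI1. Another listed peak lay within 10 kb of 23 of the 31, against 61.4% of all peaks.

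**Figure D4:**
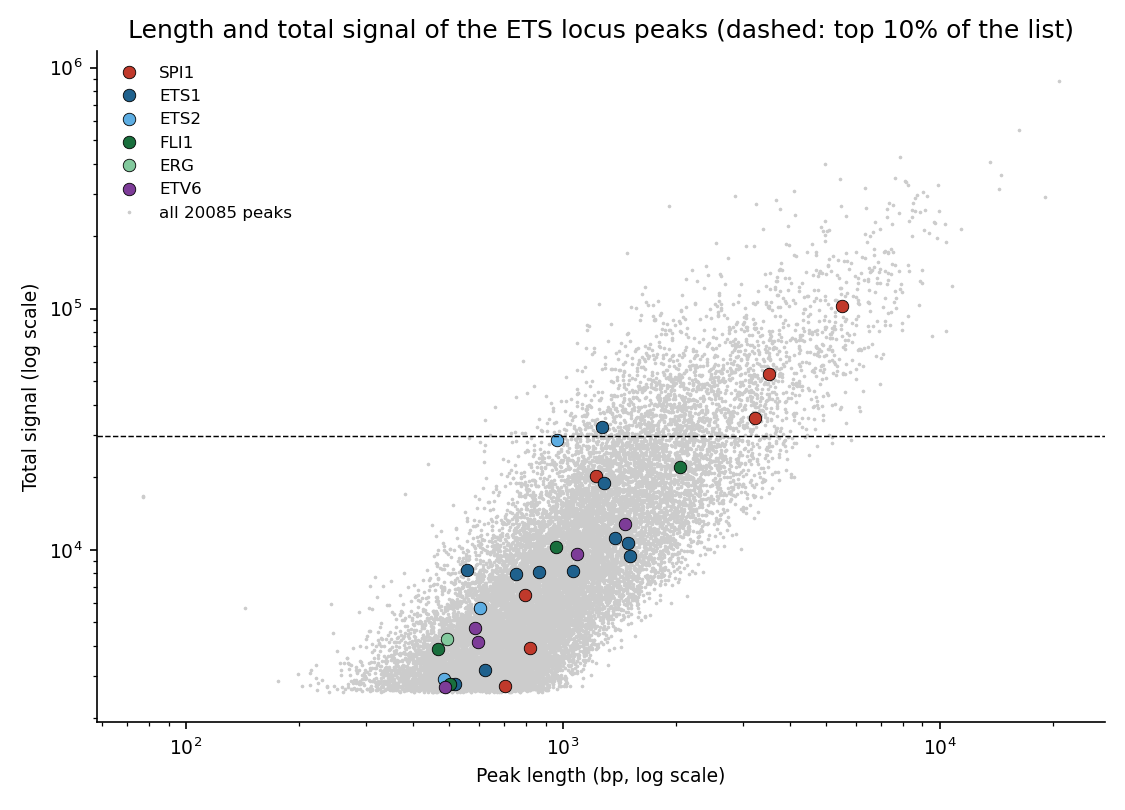
Points show peak length in bp (x axis) and total signal (y axis), both on log scales, for all 20085 peaks (grey) and for the peaks of each ETS gene (coloured); the dashed line marks the top 10% of the list at 29703. The long, strong peaks among the coloured points belong to SPI1, while the tallest for their length are the ETS1 peak of 32358 and the ETS2 peak of 28439.

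Strength took different forms at different genes. The strongest SPI1 peak had a mean of 18.7 signal units per base over 5511 bp, and the SPI1 peak at the 5′ end 15.2 over 3519 bp. The strongest ETS1 peak had 25.4 per base over 1273 bp, and the strongest ETS2 peak 29.4 over 967 bp. By maximum signal the order was ETS1 (98), ETS2 (87), SPI1 (70) and FLI1 (67), so SPI1 led by extent and not by height.

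The family has 20 further genes, of which 19 could be placed in 15 cytogenetic bands whose length is alike in both builds. For these no gene-level hg19 position was used, and a band holds many other genes. The bands of 16 of the 19 genes had more peaks per Mb than the median band (3.43), against 49.9% of all 739 bands. The median over the genes was 7.41, and gene density was not matched. Both the count and this median take a shared band once per gene. The shared bands, 1q32.1, 1q23.1, 11p13 and 6p21.31, all lay above the median band. The highest values belonged to the band shared by ETV7, a repressor close to ETV6, and SPDEF (6p21.31, 25.2 peaks per Mb) and to that of ETV4 (17q21.31, 24.5). The lowest were those of GABPA, the DNA-binding subunit of GABP (21q21.3, 1.06), and ETV1 (7p21.2, no peak).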

How the data were processed

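NB4 cells were profiled with a PML-RARA antibody by CUT&Tag and paired-end sequencing on a MiSeq, in 2 replicates, per the labels' protocols. Whether the replicates are separate cultures is not stated. Trimmomatic, Bowtie2, SAMtools, bedtools and SEACR are named, with hg19, in the submitters' processing notes. Versions, thresholds, any control track and the merging step are not stated there.

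The deposited list gives each peak's position and 2 whole-number signal columns. The deposited width column was read as SEACR's total signal, since it exceeds end minus start in every row and never exceeds length times maximum, and the column headed peak as the maximum signal. No scaling to depth is stated, the depth is unknown, and the list sets no floor for stretches without a peak. Positions are printed as listed; starts may count from 0.

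Windows were the gene bodies of the rule, in whole kb, with 20 kb on either side. No hg19 annotation of exons was used, so peaks in a gene body were not split into exons and introns. The 5′ end is the end of the body on the gene's strand, and rounding moves it by up to 1 kb. It can lie farther from an annotated start, since RefSeq lengths exceeded the rule's by 79.5 kb for ELF1 and 12.5 kb for ERG. Starts inside a body were not used as 5′ ends. Hg19 gene models came from pyranges 0.1.4, whose table carries haplotype contig names and no build name, and from the hg19 sample of GenomicFeatures 1.54.1. Bands came from circlize 0.4.16, matched by name where lengths differed by at most 10%. RefSeq supplied symbols, gene lengths, distances between neighbours and promoter sequences, all on GRCh38, and no coordinate was converted. Python 3.11.15 with pandas 2.3.3 was used, and the window counts were tested on simulated data.

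The members and lists were chosen with earlier results of these data known. The named genes are the 8 members, their neighbours in RefSeq and 20 other ETS genes; at each member the peak nearest the 5′ end, the strongest and the tallest are given, and the rest by their totals. Alternatives changed the flank, the overlap rule, the peak threshold, the merging of peaks, the gene ends, the ranking and the distance to the 5′ end.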

Additional observations from a re-analysis of the deposited data

How the results depend on the processing

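The density of 2.57 peaks per 100 kb over the 8 loci ranged from 1.97 to 2.82 over flanks of 0 to 100 kb, midpoint or overlap assignment, merging of peaks within 1 kb and gene ends moved by 1 kb. It fell to 1.57 when only peaks at or above the list's median total signal were kept, because fewer peaks were counted. The chromosomes then had 0.331, a ratio of 4.76, again with gene density not matched. The signal of 381 per kb ranged from 273 to 378 under other flanks and overlap rules and with the weaker peaks left out. With flanks of 100 kb the windows of neighbouring genes overlapped. The peaks of 6187 and 6011 between ERG and ETS2 were then counted at both genes, so the values at that flank include them 2 times. By summed signal the leading locus was SPI1 with flanks of 20 kb (48.9%, ETS1 26.3%) and wider, but ETS1 with no flank (SPI1 29.2%, ETS1 44.0%) and 5 kb flanks (SPI1 28.2%, ETS1 42.6%). The signal per kb was 206 without the SPI1 locus and between 327 and 515 without any other single locus, while the density was between 1.92 (without ETS1) and 3.39 (without ERG). With only the stronger peaks kept, 2 genes had a peak within 2 kb of the 5′ end in place of 3. The flank of 100 kb, the shares by flank and the omission of single loci were chosen after seeing the data. The share of peaks in the top 10% was 9.68% when ranked by maximum, by signal per base or by length, and between 7.69% and 14.3% with other flanks. At the 6 loci with a peak, 46 of 60 counts under other settings stayed within 1.5 times. The counts at SPI1 and ETS2 moved beyond this under every other flank (0, 5, 50 and 100 kb). The count at ETS1 did so under none of the settings. No paired analysis was possible because the file gives 1 merged list with no value per replicate, and for the same reason no replicate could be left out. Peaks are listed without depth or a background level, so the smallest signal that could have been detected at SPIB, ELF1 and most of ERG is unknown.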
